A study of Mus musculus with 13 samples.

Results

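The comparison set the proximal convoluted tubule (PCT) against the proximal straight tubule (PST) of the adult mouse kidney, by the open chromatin of single nuclei. Nuclei were chosen by age and by the deposited cluster names PT and PT2, read here as the convoluted and the straight segment. The names themselves do not state a segment, and the paper describes both segments from marker genes. They numbered 6308 PCT and 1748 PST nuclei, together 8056 of the 28316 nuclei of the series and of the 16887 nuclei from adult kidneys. Kidneys were minced and lysed, and their nuclei were profiled by snATAC-seq, in which a transposase cuts and tags accessible DNA. The adult group held 1 sample of 3-week-old mice (P21) and 2 samples of 8-week-old mice (P56), and 2 samples labelled P0, from newborn mice, served as a younger comparison. None of them is labelled with a treatment, an edited gene, a strain or a sex. The labels give separate samples and do not say that each came from a different animal, so the p-values below measure the spread between samples.

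The proximal tubule reabsorbs most of the glucose, amino acids, phosphate and bicarbonate that the glomerulus filters. Its convoluted first segments lie in the cortex and carry transporters of high capacity, while the straight last segment runs toward the outer medulla, meets a filtrate that is already depleted, and is known for organic anion secretion and high-affinity uptake. The cells share one differentiation programme, in which the transcription factor Hnf4a takes part, so the comparison is between near relatives.

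A peak is a region with more transposase cuts than its surroundings. An open call is 1 nucleus with at least 1 fragment in 1 peak. The 20 peaks with the largest differences that also passed a minimum of 5% open nuclei were open in 5.25% to 49.0% of the nuclei of the higher cluster in each sample, and in 0% to 2.30% of the nuclei of the other. The sequences below are shown because they are the centres of such peaks, each 200 bases of the mouse genome GRCm38, and they were searched on both strands for 13 short motif words. Capitals mark the words. Of the named peaks searched, 1 of 9 PST centres and 4 of 10 PCT centres held a word. The 3 PST centres shown hold none and the 3 PCT centres shown are among the 4 that do, so the sequences shown are no measure of how often words occur.
PST-peak-1 (Ptprc), chr1:138195130-138195329, plus strand: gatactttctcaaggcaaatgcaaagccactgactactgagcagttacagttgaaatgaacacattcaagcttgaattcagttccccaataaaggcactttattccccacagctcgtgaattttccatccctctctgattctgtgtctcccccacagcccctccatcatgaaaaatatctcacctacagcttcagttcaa
PST-peak-4 (Spidr), chr16:15979824-15980023, plus strand: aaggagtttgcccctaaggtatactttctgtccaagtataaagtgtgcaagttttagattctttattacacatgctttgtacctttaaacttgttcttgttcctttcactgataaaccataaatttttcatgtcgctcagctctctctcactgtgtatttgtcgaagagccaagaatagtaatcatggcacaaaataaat
PST-peak-10 (Slc7a13), chr4:19861981-19862180, plus strand: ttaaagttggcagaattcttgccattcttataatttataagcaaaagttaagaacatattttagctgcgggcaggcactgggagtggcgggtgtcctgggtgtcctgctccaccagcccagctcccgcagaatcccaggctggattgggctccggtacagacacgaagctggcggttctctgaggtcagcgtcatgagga
PCT-peak-6 (Magi2), chr5:20321244-20321443, plus strand: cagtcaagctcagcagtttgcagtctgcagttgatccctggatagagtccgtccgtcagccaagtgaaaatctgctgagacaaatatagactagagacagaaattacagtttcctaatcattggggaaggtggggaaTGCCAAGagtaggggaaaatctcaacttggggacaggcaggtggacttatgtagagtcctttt
PCT-peak-7 (Ugt2a3), chr5:87347888-87348087, plus strand: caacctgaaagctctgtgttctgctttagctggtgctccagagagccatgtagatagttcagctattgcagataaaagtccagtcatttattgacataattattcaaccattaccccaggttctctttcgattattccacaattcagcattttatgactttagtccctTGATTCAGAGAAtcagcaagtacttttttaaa
PCT-peak-8 (Ppp1r16b), chr2:158722392-158722591, plus strand: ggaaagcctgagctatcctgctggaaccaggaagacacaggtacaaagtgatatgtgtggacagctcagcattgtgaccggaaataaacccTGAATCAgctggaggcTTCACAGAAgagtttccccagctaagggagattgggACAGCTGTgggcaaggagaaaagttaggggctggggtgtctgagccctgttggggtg
The word in PCT-peak-6 is the NF1 half-site TGCCAAG. In PCT-peak-7 the capitals join the AP-1 word TGANTCA and the STAT5 word TTCTNNGAA, which overlap, the STAT5 word on the minus strand. PCT-peak-8 holds AP-1, STAT5 and the IRX word ACANNTGT. A match says that these letters are present in this window and nothing about a bound factor.

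The promoters of the 2 genes below, 250 bases before the start in the RefSeq annotation of GRCm38.p6, were chosen after their values were seen, because a called peak overlaps each of them. Serpina1f was open in PST and Clec2h in PCT. Capitals in the Serpina1f promoter mark the NF1 half-site and the STAT5 word, both on the strand opposite to the gene. In the Clec2h promoter they mark the MAF word TGCTGAC and the AP-1 word.
Serpina1f promoter, chr12:103695530-103695779, minus strand: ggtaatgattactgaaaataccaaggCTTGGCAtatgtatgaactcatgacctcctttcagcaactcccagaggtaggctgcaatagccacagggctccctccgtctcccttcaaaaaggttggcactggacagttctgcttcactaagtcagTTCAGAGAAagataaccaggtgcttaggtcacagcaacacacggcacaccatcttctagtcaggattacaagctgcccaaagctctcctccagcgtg
Clec2h promoter, chr6:128662135-128662384, plus strand: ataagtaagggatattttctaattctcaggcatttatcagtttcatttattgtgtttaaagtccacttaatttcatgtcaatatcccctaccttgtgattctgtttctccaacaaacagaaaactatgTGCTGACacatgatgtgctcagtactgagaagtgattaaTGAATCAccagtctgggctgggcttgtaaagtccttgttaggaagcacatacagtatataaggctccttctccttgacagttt

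PST nuclei made up 14.6% of the PCT and PST nuclei in the P21 sample and 21.1% and 26.4% in P56 samples 1 and 2, a mean of 20.7% ± 5.90 (SD, n = 3). Open peaks per nucleus had a median of 5227, 4206 and 7466 in PCT and 5398.5, 5956 and 12173 in PST. PST was the higher in each sample, by 2209.5 ± 2302 (SD), and the exact sign-flip test gave p = 0.25, the smallest that 3 pairs allow (two-sided). P56 sample 2 was the deepest in both clusters. The summed open calls ran from 9131677 to 17287332 in PCT and from 1608509 to 9494152 in PST. Among the 8056 nuclei used, 36 barcodes occurred in more than 1 library, each in a separate nucleus per library. Because depth differed, levels are given in cpm, the open calls per 1000000 open calls of the same sample and cluster, and shares of nuclei also after thinning each nucleus to 2000 open peaks. That step left out 204, 284 and 97 PCT nuclei and 29, 47 and 36 PST nuclei.

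Of the 20 segment markers, 18 went in the direction of their label and 2 went against it. Gene activity, the open calls of all peaks in the gene body and the 2 kb upstream, was higher in PCT for 8 of 8 convoluted markers and higher in PST for 10 of 12 straight markers, where 31.8% of all 25743 genes tested were called (14.2% higher in PCT, 17.6% higher in PST). With DESeq2, without the replicate block, with thinned or equal numbers of nuclei, with peaks near start sites alone or without the P21 sample, 7 of the 12 straight markers were called higher in PST. Without the replicate block 6 of the 8 convoluted markers were called higher in PCT. The authors named the clusters from marker genes in these nuclei, so the directions are no independent evidence of identity. Slc5a2, the sodium-glucose transporter SGLT2, had 66.6 cpm in PCT at P21 and 47.2 and 58.2 at P56, with 7.46, 2.88 and 2.95 in PST. Slc5a12, a lactate transporter, had 135, 107 and 130 in PCT and 13.7, 5.23 and 6.53 in PST. Slc34a1, the sodium-phosphate transporter NaPi-IIa, had 366, 284 and 325 in PCT and 82.7, 42.7 and 31.0 in PST. In all 3 genes every PCT value lay above every PST value, and the P21 sample was the highest in both clusters. The log2 differences (PST minus PCT) were -3.97 ± 0.190 (SE), -4.08 ± 0.173 and -2.79 ± 0.177, with edgeR adjusted p of at most 7.7e-08.

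Among the straight markers, Serpina1f, a member of the serpin family, had 1.31, 3.62 and 1.68 in PCT and 113, 112 and 132 in PST, a log2 difference of 5.80 ± 0.208 (edgeR adjusted p = 9.9e-10). Kap, the androgen-regulated kidney protein, had 2.85, 9.95 and 3.36 in PCT and 113, 68.3 and 96.8 in PST. Atp11a, a phospholipid flippase, had 79.8, 106 and 95 in PCT and 256, 241 and 256 in PST. None of these groups overlapped. The straight markers Slc13a3, the dicarboxylate transporter NaDC3, and Cyp4b1, a cytochrome P450, went against their label: Slc13a3 had 262, 236 and 290 in PCT and 173, 131 and 153 in PST, and its log2 difference was -0.78 ± 0.100. Cyp4b1 had a difference of -0.95 ± 0.152. Both were lower in PST in each of the 3 samples. The groups overlapped in the non-coding RNA gene Snhg11, at -0.80, and in the amino acid transporter Slc7a13, at 0.49, which were called all the same.

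**Figure D1:**
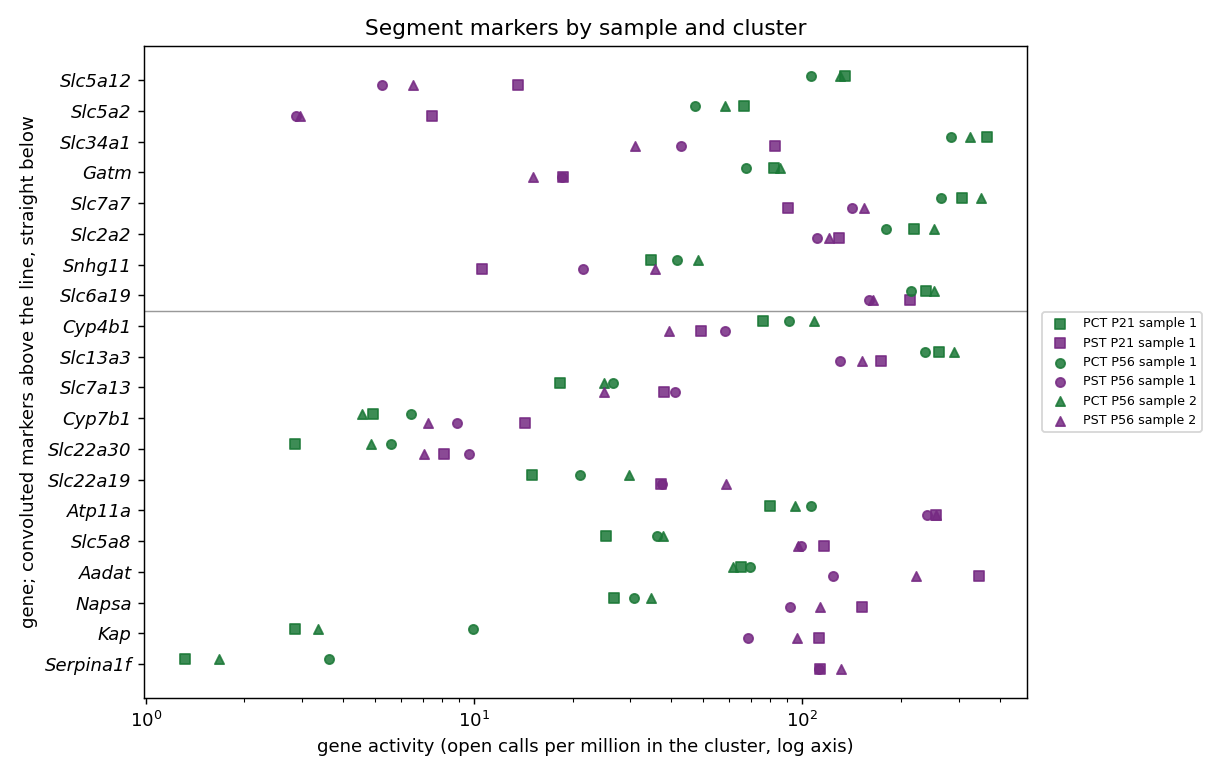
Gene activity of the 20 segment markers in cpm (log axis), with 1 point per sample and cluster: green for PCT, purple for PST, squares for P21 and circles and triangles for P56 samples 1 and 2. The 8 convoluted markers lie to the right in PCT, while Slc13a3 and Cyp4b1 among the 12 straight markers do so as well.

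Single peaks and the sum over a gene could differ. Slc6a19, the neutral amino acid transporter B0AT1, differed little in gene activity, with 238, 215 and 253 cpm in PCT and 214, 160 and 165 in PST and a log2 difference of -0.40 ± 0.105. Of its 8 tested peaks 2 were called. The peak over its upstream GENCODE starts (chr13:73700553-73701160) was open in 21.9%, 13.5% and 31.5% of PCT nuclei and in 4.14%, 1.37% and 4.85% of PST nuclei, a log2 difference of -3.22 ± 0.222 (edgeR adjusted p = 1.31e-11). After thinning the shares were 8.09%, 6.16% and 9.04% against 0.844%, 0.164% and 0.507%, and the clusters were apart before and after thinning. The peak over the start that RefSeq gives (chr13:73692355-73693092) was not called (-0.28 ± 0.153, edgeR adjusted p = 0.156). Both called peaks also lie in the antisense gene Slc6a19os, and open calls of the 2 genes cannot be told apart there. Aadat is an aminotransferase of the kynurenine pathway. Its gene activity was 65.4, 69.3 and 61.5 in PCT and 345, 124 and 223 in PST, while its start-site peak, open in 35.5%, 26.8% and 42.0% of PCT nuclei and 58.3%, 34.2% and 70.5% of PST nuclei, was not called (log2 difference 0.24 ± 0.154, edgeR adjusted p = 0.231). After thinning, the shares of that peak were 12.8%, 12.2% and 12.2% in PCT and 22.4%, 13.4% and 11.9% in PST, which overlap. Of 8 tested Aadat peaks, 7 were called at least 2-fold higher in PST. Serpina1f was apart at an annotated start inside its gene too, in the peak chr12:103693831-103695018. It was open in 0.0645%, 0.569% and 0.174% of PCT nuclei and in 18.8%, 20.2% and 54.1% of PST nuclei. After thinning, 5.49%, 6.39% and 6.97% of PST nuclei were open. The gene model starts at position 103695529, so this peak is not the one that overlaps the promoter printed above.

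Across the genome, 43136 of 101933 tested peaks were called (42.3%), of which 22357 were higher in PST (21.9%) and 20779 in PCT (20.4%). At least 2-fold differences were found at 18639 peaks for PST (18.3%) and 15910 for PCT (15.6%). The clusters were made by the authors from the accessibility of these same nuclei, so the test measures how alike the difference was in the 3 samples and is no independent test of the segments. Of these, 18249 PST and 15042 PCT peaks had more than 3 open calls in the lower cluster. Their median absolute log2 difference was 2.08 for PST and 1.80 for PCT, and 1918 PST and 220 PCT peaks differed at least 16-fold. Without this limit on open calls, 2297 PST and 575 PCT peaks did. PST had fewer open calls in all, so the limit was stricter for PCT peaks. Sizes are therefore not compared between the directions. The 3 values of each cluster did not overlap at 85.3% of the 18639 PST peaks and 91.2% of the 15910 PCT peaks. These peaks had been selected for a call and a 2-fold difference, which favours such separation. The share over all tested peaks is not given, so these shares are only a description. The majority between directions was not stable. Of the called peaks 51.8% were higher in PST, against 39.3% of 57702 without the filter on low counts, 46.6% of 16078 with nuclei thinned to 2000 open peaks and 48.5% of 32703 without P56 sample 2. With as many PCT as PST nuclei it was 53.6% of 26438.

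By a rule that asked for the same direction in each sample and at least 5% open nuclei in every sample of the higher cluster, 3901 PST and 3650 PCT peaks could be named, and the 10 largest of each are described. The Spidr intron peak on chromosome 16 (15979314 to 15980532), 91507 bp from the start of Cebpd, a C/EBP transcription factor, was open in 0.129%, 0.0813% and 0.218% of PCT nuclei and in 30.1%, 14.0% and 49.0% of PST nuclei. Its log2 difference was 7.24 ± 0.294 (edgeR adjusted p = 3.03e-15). The peak between genes whose nearest start, at 286627 bp, is that of Dusp10, a MAP kinase phosphatase, was similar. It had 9 PCT open calls in all and was open in 25.6%, 16.7% and 39.2% of PST nuclei. The peak 43355 bp from the start of Slc7a13 was open in 19.2%, 10.4% and 16.6% of PST nuclei and had 6 PCT open calls. The peak near Ptprc (chr1:138194994-138195464), 19521 bp from its start, had only 3 PCT open calls against 333 in PST, the peak near Med18 had 2 against 230, and the Lsamp intron peak had 2 against 130, so no fold is given for them. In these 3 peaks every PST sample was above every PCT sample. The other named PST peaks lay in Dnah9 or are named by the nearest start, with log2 differences of 6.81 to 7.39. The distances were 6913 bp to Sulf2, 56882 to Sik1 and 87286 to 1700129C05Rik. Ptprc encodes the leukocyte antigen CD45. The peak near it had at most 2.15 cpm in the other clusters looked at in the adult samples. That value was in the cluster labelled NP, for nephron progenitors. The clusters PT_out and NP_LOH were not looked at. In NP the Sik1 peak had 40.9 cpm, above its PST mean of 15.1, and the Med18 peak 15.1 against 14.8. No other named PST peak reached its PST mean in another cluster looked at.

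The named PCT peaks had 6 to 25 open calls in the other cluster, where the named PST peaks had 2 to 9. PST had fewer open calls in all, so sizes are again not compared between the directions. The Magi2 intron peak (chr5:20321065-20321621) was open in 22.5%, 16.9% and 31.1% of PCT nuclei and in 0.376%, 0.761% and 2.30% of PST nuclei, with a log2 difference of -4.64 ± 0.248 (edgeR adjusted p = 2e-13). Magi2, a scaffold protein, also served as a podocyte marker. The peak near Ugt2a3, a glucuronosyltransferase gene, was open in 11.0%, 9.68% and 21.3% of PCT nuclei and in 0.376%, 0.304% and 1.58% of PST nuclei. The Ppp1r16b intron peak was open in 14.5%, 7.77% and 26.2% and in 0.376%, 0.152% and 2.06%. Groups overlapped at none of the 20 named peaks, which had been chosen for large differences in the same direction in each sample. The rest of the PCT peaks lay in Rec114 and Bmp6 or are named by the nearest start, with log2 differences from -5.11 to -4.59. The distances were 3014 bp to Mgat3, 7310 to Galnt3, 99979 to Nox4, 220484 to Cntnap4 and 1.857e+06 to Pcdh17. After thinning, the named PST peaks were open in 1.65% to 13.1% of PST nuclei and 0% to 0.138% of PCT nuclei, and the named PCT peaks in 2.15% to 9.0% of PCT nuclei and 0% to 0.422% of PST nuclei. With 0 open nuclei before thinning, shares of up to 0.193%, 0.122% and 0.131% remain possible in PCT and up to 1.13%, 0.457% and 0.364% in PST, by counting error only.

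**Figure D2:**
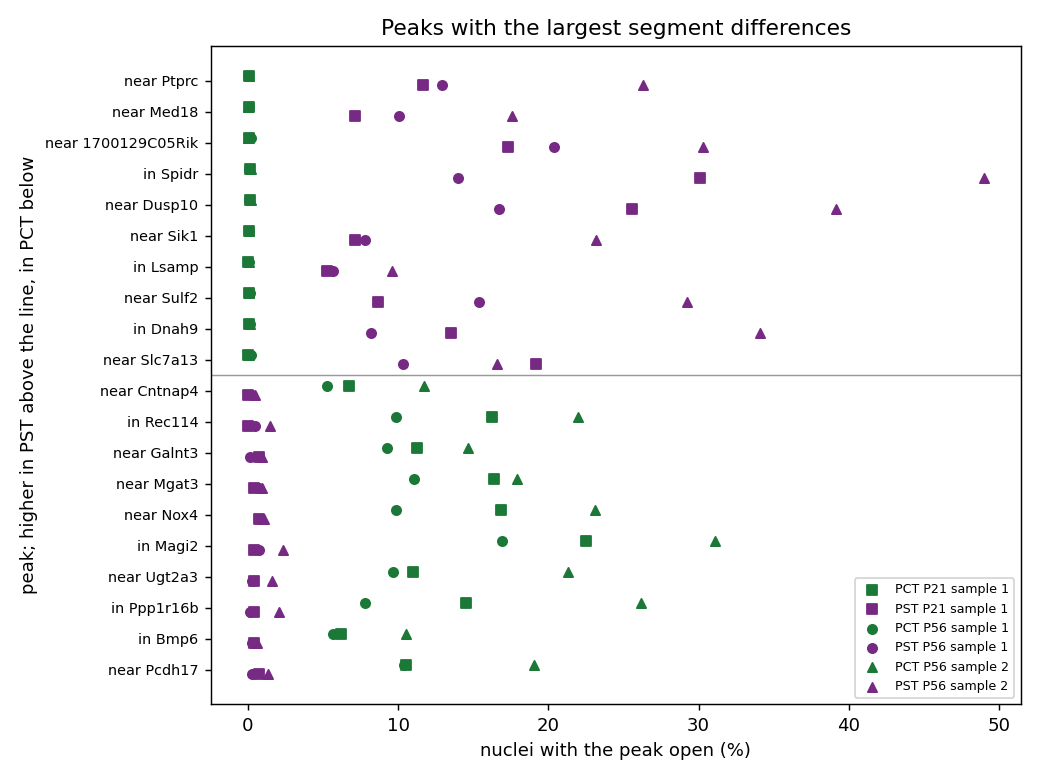
Share of nuclei with the peak open (%), for the 10 named peaks higher in PST (above the line) and the 10 higher in PCT (below), with 1 point per sample and cluster. PST peaks reach 49.0% of PST nuclei with PCT at or under 0.218%, and P56 sample 2 is the rightmost point of the higher cluster in most rows.

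The called peaks lay away from gene starts. Start sites held 16.9% of the tested peaks but 6.35% of the peaks at least 2-fold higher in PST and 6.28% of those higher in PCT. Introns held 43.6% of the tested, 48.0% of the PST and 52.8% of the PCT peaks, and regions between genes 23.0%, 28.5% and 25.6%. Seen from the elements, 22.0% of start-site peaks were called against 47.3% of intron peaks and 47.6% of peaks between genes. Where a protein-coding gene was itself called at least 2-fold and had a tested start-site peak, that peak was called in the same direction for 471 of 616 PST genes (76.5%) and 338 of 385 PCT genes (87.8%). These shares share their open calls with the gene sums and are given as a description.

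Some motif words were more frequent in the peaks of 1 segment, while others differed little between the segments. The MAF half-site TGCTGAC was in the central 300 bp of 10.8% of the PCT peaks, 4.99% of the PST peaks and 6.36% of all tested peaks. The HNF4 word CAAAGTCCA was in 2.38%, 1.22% and 1.51%, the E-box CACGTG in 7.28%, 4.08% and 5.64%, and the GATA word AGATAAG in 4.54%, 2.73% and 3.11%. These words were more frequent in PCT peaks than in all tested peaks and less frequent in PST peaks. Other words were most frequent in PST peaks: the NF1 half-site TGCCAAG, with 7.71% of PCT, 9.92% of PST and 7.61% of tested peaks, and the STAT5 word TTCTNNGAA, with 5.79%, 7.22% and 5.93%. The FOX word TGTTTAC gave 4.82%, 5.46% and 4.45%. The AP-1 word TGANTCA, with 12%, 10.5% and 9.42%, the TEAD word CATTCCA, with 6.38%, 6.96% and 5.72%, and the IRX word ACANNTGT, with 10.1%, 10.7% and 9.4%, were more frequent in both than in all tested peaks in the central 300 bp. Over whole peaks the AP-1 word was in 17.7% of PST and 17.9% of tested peaks, so the PST share was not above the tested one. The tested peaks hold more start sites. In introns and outside genes the shares of the IRX word were 10.5% in PCT, 11.0% in PST and 10.6% in tested peaks, so the PCT share was not above the tested one, and the NF1 half-site was at 7.71%, 10.2% and 8.21%. For the C/EBP word TTGCNNCAA the shares were 2.50%, 2.64% and 2.35%, for PPAR/RXR AGGNCAAAG 4.50%, 3.58% and 3.59%, and for the ERR word TCAAGGTCA 1.12%, 0.799% and 0.824%. Over whole peaks the C/EBP word was in 4.96% of PCT, 4.97% of PST and 5.20% of tested peaks, so neither segment was above the tested share. The mean GC content was 47.1% in PCT peaks, 47.7% in PST peaks and 50.1% in all tested peaks, so it differed less between the segments than from the background. Peaks are not replicates, so the shares are given without a test.

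**Figure D3:**
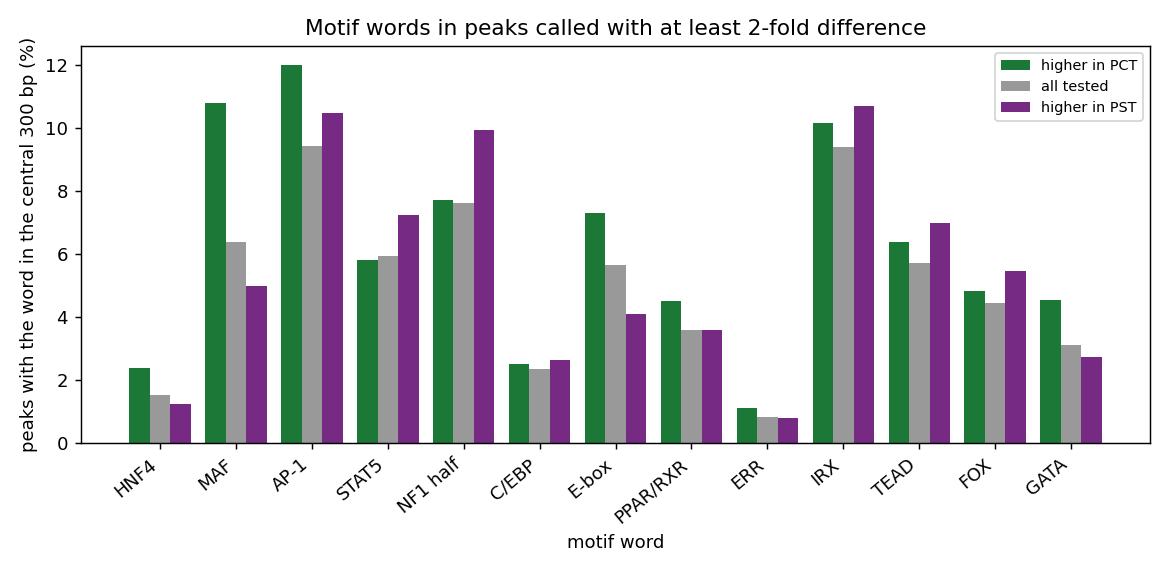
Share of peaks (%) with each of the 13 motif words in the central 300 bp, for peaks called at least 2-fold higher in PCT (green), all tested peaks (grey) and peaks called at least 2-fold higher in PST (purple). MAF is at 10.8%, 6.36% and 4.99%, while the NF1 half-site is highest in PST at 9.92%.

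At the level of genes, 4524 were higher in PST and 3664 in PCT, and 2220 and 1349 of these differed at least 2-fold, which is 8.62% and 5.24% of all genes tested. Without the replicate block 2872 and 2168 genes were called, and after thinning 2804 and 2303. Naming by size asked for at least 30 cpm in every sample of the higher cluster, which 316 PST and 234 PCT protein-coding genes reached. Beside Serpina1f and Kap, the PST genes included Defb1, a beta-defensin of the innate defence, with 1.75, 2.60 and 2.78 in PCT and 78.3, 76.4 and 59.4 in PST. Bcat1, the cytosolic branched-chain aminotransferase, had 5.04, 6.13 and 3.64 in PCT and 93.3, 106 and 132 in PST. Kcnk1, a potassium channel, had 13.1, 18.4 and 9.83 in PCT and 218, 204 and 215 in PST. In each of these the lowest PST value was over 10 times the highest PCT value. The log2 differences were 4.82 ± 0.176, 4.56 ± 0.179 and 4.00 ± 0.161. The other PST genes were Cldn3, a tight junction protein (4.09), Mep1b, a meprin subunit (3.91), Wasf3, an actin regulator (3.77), Slco4c1, an organic anion transporter (3.36), and Irx1, a homeobox factor (3.31).

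Beside Slc5a12, Slc5a2 and Slc34a1, the PCT genes included Prodh2, the hydroxyproline dehydrogenase, with 87.6, 52.9 and 87.9 in PCT and 12.4, 6.28 and 9.58 in PST, a log2 difference of -3.07 ± 0.136. Acss1, a mitochondrial acetyl-CoA synthetase, had 170, 130 and 132 in PCT and 27.4, 25.9 and 21.9 in PST. Neither these genes nor the others of this group had overlapping values. They had been chosen for large differences in the same direction in each sample, which favours such separation. The share over all tested genes is not given, so this is only a description. Others were Clec2h, a C-type lectin (-3.88), Pfn3 (-3.38), Cyp2f2, a cytochrome P450 (-2.86), and Tbx2, a T-box factor (-2.55). Pfn3 lies inside the window of Slc34a1 (chr13:55398187-55415592) and its open calls cannot be told apart from those of that gene. All 20 named genes had edgeR adjusted p of at most 3.13e-07.

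Transporters of sugar, phosphate, bicarbonate and carboxylates were mostly higher in PCT. Of 24 tested, 13 were called higher in PCT, 4 in PST and 7 were not called, against 14.2% of all genes called higher in PCT and 17.6% in PST, with a median log2 difference of -0.45 where the median of all genes was 0.00. Beside the markers, Slc13a1, a sulfate transporter, had 94.8, 96.1 and 121 in PCT and 20.5, 46.3 and 18.6 in PST. Slc9a3, the sodium-proton exchanger NHE3, had 206, 174 and 192 in PCT and 80.8, 80.1 and 59.9 in PST, a log2 difference of -1.38 ± 0.118. Slc4a4, the basolateral bicarbonate transporter, was at -1.01 ± 0.0941. The 4 genes of this list that were higher in PST include the glucose transporters of high affinity: Slc5a1, which encodes SGLT1, had 57.5, 57.5 and 51.3 in PCT and 125, 101 and 110 in PST (1.02 ± 0.106), and Slc2a1, which encodes GLUT1, differed by 0.56 ± 0.116. Slc5a2 and Slc2a2, the pair of lower affinity, had the opposite sign. Slc5a8 (1.65) and the exchanger Slc9a8 (0.70) were the other 2.

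Of 22 amino acid and peptide transport genes tested, 10 were called higher in PCT and 6 in PST, against 14.2% and 17.6% of all genes, with a median of -0.21. Without P56 sample 2 the counts were 8 and 7. Slc7a8, the basolateral neutral amino acid exchanger LAT2, had 179, 195 and 216 in PCT and 51.0, 50.0 and 47.8 in PST, and Slc43a2 240, 195 and 240 against 67.1, 66.2 and 91.1. Both lay apart in every sample, at -1.99 ± 0.111 and -1.56 ± 0.109. The peptide transporters went opposite ways: Slc15a1, the low-affinity PEPT1, was at -1.54 ± 0.143 and Slc15a2, the high-affinity PEPT2, at 0.64 ± 0.122. Slc7a12 had 8.54, 6.51 and 9.66 in PCT and 93.9, 55.7 and 92.7 in PST, the largest difference of the list (3.28 ± 0.122). Slc38a3, the glutamine transporter SNAT3, followed with 15.3, 21.1 and 24.6 in PCT and 90.8, 79.8 and 82.8 in PST. Slc6a18 was higher in PST at 1.30 and its relative Slc6a19 lower at -0.40. Slc3a1 and Slc7a9, which form the cystine transporter, differed slightly and in opposite directions, at 0.37 ± 0.0938 and -0.41 ± 0.118.

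Organic anion and cation transporters were split as well, with 10 of 28 tested genes higher in PCT, 7 higher in PST (14.2% and 17.6% of all genes) and a median of 0.05. Without P56 sample 2 the counts were 8 and 11, and with peaks near start sites alone 6 and 9, so the list had no stable majority. The basolateral organic anion transporters Slc22a6 and Slc22a8, known as OAT1 and OAT3, were higher in PCT. Slc22a8 had 191, 152 and 174 in PCT and 56, 45.0 and 37.0 in PST, a log2 difference of -1.93 ± 0.122, and Slc22a6 differed by -1.35 ± 0.169. Slc22a7, known as OAT2, had 12.5, 11.2 and 8.16 in PCT and 76.5, 65.2 and 88.2 in PST (2.92 ± 0.161). The 3 tested Slco genes of the list, Slco4c1, Slco1a6 (2.21) and Slco3a1 (1.78), were higher in PST in each sample. Slc22a28 (-1.26 ± 0.227) and Abcc4 (-0.98 ± 0.174) were higher in PCT. The cation transporter Slc22a2 was at 0.28 (edgeR adjusted p = 0.054). Slc22a19, Slc22a30, Slc22a28 and Slc22a29 belong to a family of near copies, so fragments there may be shared between genes.

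Of 16 genes of gluconeogenesis and ammonia handling, 9 were called higher in PCT and 1 in PST (14.2% and 17.6% of all genes), with a median of -0.32. Without P56 sample 2 the counts were 6 and 2 and the median -0.18, and 6 and 1 were called with thinned nuclei or without the replicate block. The carbonic anhydrases led: Car14 had 110, 95.6 and 114 in PCT and 14.9, 20.9 and 23.9 in PST (-2.34 ± 0.132), followed by Car4 (-1.57) and Car2 (-1.16). G6pc, the glucose-6-phosphatase that releases glucose, had 42.2, 38.9 and 42.9 in PCT and 21.8, 19.6 and 19.0 in PST. Pck1, an enzyme of gluconeogenesis, was at -0.22 (edgeR adjusted p = 0.133) and Fbp1 at -0.09 (0.653). The PST gene was Slc38a3. Of 33 fatty acid oxidation and peroxisome genes 9 were higher in PCT and 3 in PST, with a median of -0.01, a share near the 31.8% of all genes. With thinned nuclei 5 and 3 were called, and without the replicate block 7 and 1. Ppara, the nuclear receptor that controls this pathway, was at -0.74 ± 0.105, and the peroxisomal enzymes Cat, Decr2 and Acox3 at -0.53, -0.56 and -0.50. Cd36, a fatty acid uptake receptor, had 11.3, 28.4 and 25.1 in PCT and 66.5, 93.7 and 85.5 in PST (1.94 ± 0.141), and Ehhadh (0.41) and Slc27a2 (0.38) were the other 2.

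Of 15 endocytosis genes, 3 were called higher in PCT, 1 in PST and 11 were not called (median -0.12), a share near the 31.8% of all genes. Without P56 sample 1, with DESeq2 or without the replicate block 0 were higher in PST. Amn, the partner of cubilin, was at -0.75 ± 0.106, Dab2, an endocytic adaptor, at -0.72 ± 0.102 and Clcn5 at -0.35. Dab2 had 330, 282 and 391 in PCT and 203, 194 and 202 in PST. The receptors themselves, Lrp2 for megalin and Cubn for cubilin, were at -0.20 and -0.24 (edgeR adjusted p = 0.115 and 0.0974).

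Of 11 genes of brush border peptidases and the angiotensin system, 6 were called higher in PST and 1 in PCT (median 0.52), against 17.6% and 14.2% of all genes. With peaks near start sites alone the counts were 5 and 2. Both meprin subunits were among them, Mep1b with 7.12, 11.8 and 6.31 in PCT and 134, 114 and 120 in PST, and Mep1a with 84.5, 81.0 and 80.6 and 201, 153 and 176. Ace, the angiotensin-converting enzyme, had 35.5, 41.9 and 35.9 in PCT and 82.1, 64.1 and 99.6 in PST. Agt, the angiotensin precursor, had 25.8, 31.0 and 36.2 in PCT and 68.4, 59.4 and 67.5 in PST. The log2 differences of Mep1a, Ace, Agt and Mme, the peptidase neprilysin, were between 1.06 and 1.13. Each was higher in PST in all 3 samples. The PCT gene was Dpep1, a dipeptidase, at -1.84 ± 0.127. Anpep, Enpep and Dpp4 were at -0.16, -0.17 and 0.03 and were not called.

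**Figure D4:**
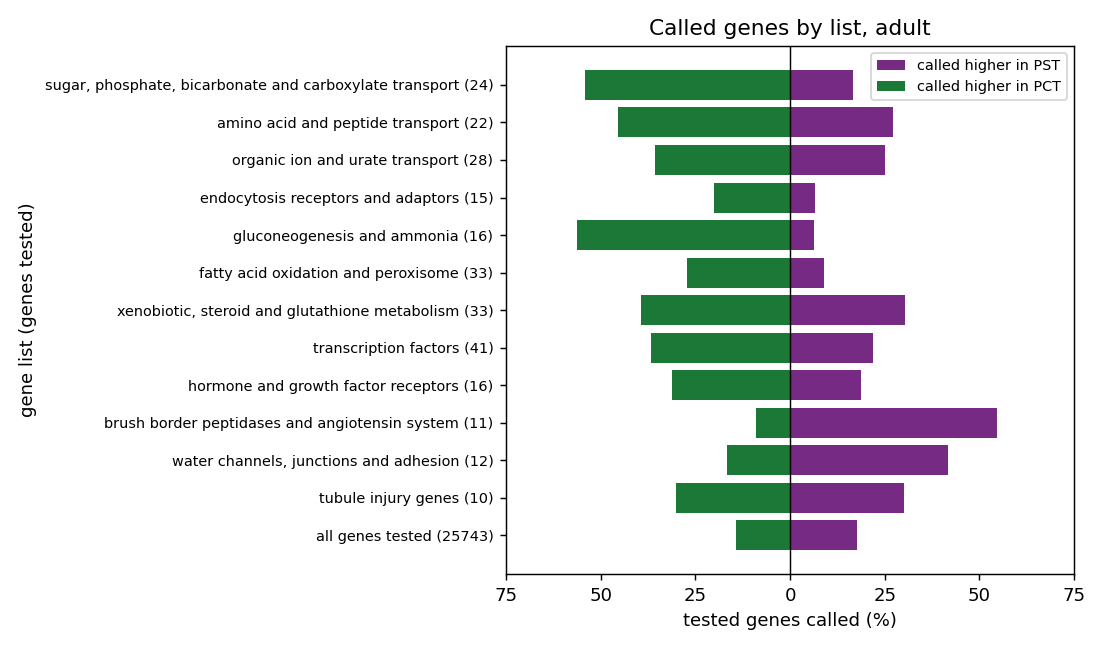
Share of tested genes (%) called higher in PST (purple, to the right) and in PCT (green, to the left) for 12 gene lists and for all 25743 genes tested, with the number tested in parentheses. Sugar and phosphate transport and gluconeogenesis extend to the left, with 13 of 24 and 9 of 16 genes, and brush border peptidases to the right, with 6 of 11.

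Xenobiotic, steroid and glutathione metabolism had 13 of 33 genes higher in PCT and 10 in PST, against 14.2% and 17.6% of all genes, with a median of 0.05. Without the P21 sample the counts were 11 and 6 and the median -0.11, and without the replicate block 8 and 5. Cyp2e1, a cytochrome P450 that oxidises ethanol, had 24.5, 27.4 and 22.4 in PCT and 3.73, 4.45 and 1.16 in PST (-3.29 ± 0.283). The vitamin D enzymes Cyp27b1, which activates the hormone, and Cyp24a1, which degrades it, were both higher in PCT, each at -1.63. Glutathione synthesis genes were higher in PST by small amounts: Gclc at 0.30, Gclm at 0.41 and Gss at 0.39. Gss had 174, 154 and 190 in PCT and 232, 208 and 229 in PST. Akr1c18 was at 2.61 ± 0.396 on few open calls, with 0.548, 2.14 and 0.926 in PCT and 1.24, 9.42 and 9.69 in PST, where the P21 PST value lay among the PCT values. Ugt3a1 (0.87 ± 0.113) and Cyp51 (0.88 ± 0.103), an enzyme of cholesterol synthesis, were also higher in PST, as was the glutathione transferase Gstm1 (0.54).

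Of 41 transcription factors, 15 were called higher in PCT and 9 in PST (median -0.16), against 14.2% and 17.6% of all genes, so the PST share was near that of all genes. Without P56 sample 2 the counts were 13 and 9 and the median -0.05. Hnf4a, a central factor of the proximal tubule, was at -0.18 and not called (edgeR adjusted p = 0.208). The nuclear receptors Ppara (-0.74), Nr1h4 (-0.73) and Rxra (-0.70) and the factor Bhlhe41 (-1.30 ± 0.161) were higher in PCT in each sample. Maf, whose family binds the MAF word, was at -0.56 ± 0.105, with 141, 125 and 148 in PCT and 99.5, 92.9 and 87.4 in PST. Irx1 had 4.27, 4.83 and 5.38 in PCT and 49.7, 44.2 and 50.5 in PST, and its neighbour Irx2 8.10, 7.71 and 5.78 and 58.4, 57.3 and 58.0. Cebpd had 22.6, 24.1 and 22.8 in PCT and 101, 79.3 and 91.0 in PST (1.96 ± 0.114). Stat5b, which transmits prolactin and growth hormone signals, had 70.2, 116 and 120 in PCT and 206, 221 and 251 in PST (1.18 ± 0.118), and Stat5a was at 0.47. In none of these 5 genes did the values of the clusters overlap. Nfib and Nfix, factors of the NF1 family, were at 0.30 and 0.50, while Nfic was at -0.39 and Nfia at 0.13 (edgeR adjusted p = 0.291).

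Among hormone receptors the largest differences were toward PST. Prlr, the prolactin receptor, had 151, 178 and 207 in PCT and 484, 398 and 309 in PST (1.14 ± 0.153). Esr1, the oestrogen receptor alpha, had 54.6, 82.1 and 47.5 in PCT and 224, 245 and 156 in PST (1.78 ± 0.110), and Gcgr, the glucagon receptor, was at 1.27 ± 0.129. These 3 were the receptors called higher in PST of 16 tested, and 5 were called higher in PCT (median 0.05), against 17.6% and 14.2% of all genes, so the PST share was near that of all genes. Without the replicate block 3 and 2 were called, so the list had no stable majority. The PCT receptors included Kl, the co-receptor Klotho, at -1.03 ± 0.166, and Pth1r, the parathyroid hormone receptor, at -0.41 ± 0.0939.

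Of 12 genes of water channels, junctions and adhesion, 5 were higher in PST and 2 in PCT (median -0.04), against 17.6% and 14.2% of all genes. The counts were 3 and 2 with DESeq2 or with peaks near start sites alone, 3 and 1 without the replicate block and 3 and 3 with thinned nuclei, so the list had no stable majority. Epcam, an epithelial adhesion molecule, had 8.32, 6.60 and 5.73 in PCT and 39.8, 27.7 and 30.8 in PST (2.28 ± 0.166), and the water channels Aqp4 (1.03 ± 0.135) and Aqp7 (0.64 ± 0.103) were higher in PST too. Aqp1, the main proximal water channel, was at -0.02 and Cldn2 at -0.29 (edgeR adjusted p = 0.915 and 0.0569). The cadherins Cdh16 and Cdh2 were higher in PCT, at -0.67 and -0.63. Of 10 tested injury genes, 3 were called in each direction, against 17.6% of all genes higher in PST and 14.2% in PCT. Without the replicate block 1 was called in PST and 2 in PCT, so no direction is read from this list. Havcr1, which encodes the injury marker KIM-1, had 11.4, 6.41 and 3.53 in PCT and 26.7, 11.5 and 11.1 in PST, where only the P21 PCT value lay among the PST values. Spp1, osteopontin, was at -1.11 ± 0.155.

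Markers of other kidney cells were compared to see what else the nuclei could hold. The 8 endothelial markers summed to 80.3 to 93.9 cpm in PCT and 149 to 177 in PST, with 2287 in the endothelial cluster, and 3 of them were called higher in PST (Plvap, Flt1 and Pecam1) and 0 in PCT by edgeR. Immune markers summed to 61.1 to 70.7 in PCT and 144 to 169 in PST, with 599 in the immune cluster, and 3 of 5 tested were higher in PST. Csf1r, a macrophage receptor, gave most of that sum, with 147, 131 and 120 in PST, while C1qa and C1qb were too low to be tested. Loop of Henle markers summed to 121 to 131 in PCT and 187 to 257 in PST, with 1403 in the loop cluster, and 3 of 7 were higher in PST, of which Irx1 is also among the factors above. Slc12a1 and Umod, which define the thick ascending limb, were at 0.69 and 0.35 and not called. Stromal markers summed to 53.3 to 60.4 and 82.4 to 93.3. Podocyte markers summed to 466 to 581 in PCT and 326 to 389 in PST, with 1876 in the podocyte cluster, and Magi2 and Nphs1 (-1.27) were the 2 called. Magi2 gave a large part of these sums, with 293, 372 and 294 in PCT and 159, 224 and 147 in PST. Of the distal convoluted tubule markers 1 of 6 was higher in PCT. Of the connecting tubule and principal cell markers 3 of 7 were higher in PST and 2 in PCT, of the intercalated cell markers 4 of 6 and 1, and of the nephron progenitor markers 3 of 7 and 0. These counts rested on few genes, and they stand beside 31.8% of all genes called, so no direction is read from the podocyte, endothelial, loop and distal convoluted tubule lists. Without P56 sample 2 the intercalated markers had 2 and 1 and the progenitor markers 1 and 0, and with DESeq2 the intercalated markers had 1 and 1. Without the replicate block the connecting tubule and principal cell markers had 1 and 2, and with peaks near start sites alone 1 of 3 immune markers was called. Without P56 sample 1 the loop markers had 5 higher in PST, the podocyte markers 2 in each direction and the distal convoluted tubule markers 0. The podocyte markers had 1 higher in PST without the P21 sample, and the distal convoluted tubule markers 1 without P56 sample 2. No doublet removal was made here, and none is stated for these nuclei in the sources used. The part of other cells in the segment differences was not tested.

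Long genes could hold changes in both directions. Among 16759 protein-coding genes tested, 7831 held at least 1 peak with a 2-fold call, 3445 only toward PST, 2535 only toward PCT and 1851 both. Named next are the protein-coding genes with the most such peaks in each direction, so high counts follow from that choice. Over all tested peaks, 18.3% were called at least 2-fold higher in PST and 15.6% in PCT. Etv6, a transcriptional repressor of the ETS family, had 39 of 51 peaks higher in PST and 0 in PCT, and Gramd1b, a sterol transfer protein, 40 of 71. Gse1 had 37 of 75. On the PCT side, Slc4a4 had 52 of 75 peaks higher in PCT and 3 in PST, Bnc2, a zinc finger gene, 42 of 48 and Xylt1, a xylosyltransferase, 33 of 42. The gene models Gm20388 (4435 kb) and Fgfr2 (2961 kb) also met the naming rule in both directions, with 125 PST and 45 PCT peaks and with 37 and 48. Both models span many other genes. In 300 genes at least 3 peaks were called in each direction. For 192 of these the gene activity was not called. That share was near the one over all genes, where 17555 of 25743 tested were not called. Msi2, an RNA-binding protein gene, had 15 PST and 17 PCT peaks of 77 and a gene difference of 0.08 ± 0.0884, chosen here after the values were seen.

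PT_out, a small proximal cluster that the authors kept apart, resembled PCT more than PST at these peaks, as a description. Its level was at least 50% of the PCT level at 78.1% of the PCT peaks and at least 50% of the PST level at 25% of the PST peaks, in 52, 106 and 131 nuclei of the 3 samples. The cluster labelled NP, for nephron progenitors, reached that level at 36.8% of the PST peaks and 26.8% of the PCT peaks. It held 52, 90 and 53 nuclei in the 3 samples. The progenitor markers summed to 101 cpm in it, against 120 to 137 in PCT and 111 to 144 in PST. These markers do not bear out its name in the adult samples. At the PCT peaks a stromal cluster (31.4%) and podocyte nuclei (28.6%) reached that level more often.

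The segments were also compared at P0. The P0 nuclei were assigned to the segments by the same clustering as the adult nuclei. The P0 samples held 547 and 557 PCT and 83 and 112 PST nuclei, and 7224 of 55315 tested peaks were called (13.1%). Without the filter on low counts 8022 were called, of which 17.9% were higher in PST against 54.4% with it. Of the 18639 adult PST peaks with at least 2-fold difference, 7296 were tested at P0, 89.1% had the same sign, 2518 were called in the same and 10 in the opposite direction. Of the 15910 adult PCT peaks 6472 were tested, 88.0% had the same sign, and 2015 and 9 were called. The median log2 difference was 1.85 in adult and 0.83 at P0 for the PST peaks, and -1.65 and -0.81 for the PCT peaks. Peaks could pass the filter at P0 through the cluster where they are high, and they were chosen for a large adult difference, so the shares of signs, the calls and the medians are a description and no independent support of the adult differences. Of adult peaks that were not called, 61.0% had the same sign. The Magi2 intron peak had 15.1 and 19.7 cpm in PCT at P0 and 0 in both PST samples. The Spidr intron peak had 2.23 and 2.39 in PCT and 17.0 and 21.1 in PST, a log2 difference of 2.99. Of the 20 named peaks 10 passed the filter at P0, which they could do through the cluster where they are high, and the other 10 were not tested.

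The difference between stages was tested at 23469 genes and called at 832 (3.55%). At 445 of them the difference lay further toward PST in adult and at 387 further toward PCT. Mep1b had 37.9 and 39.2 cpm in PCT at P0 and 66.6 and 76.5 in PST, where the adult PST values were 134, 114 and 120 and the adult PCT values at most 11.8. Its difference of differences was 2.99 ± 0.275 (edgeR adjusted p = 0.000173). Slc22a7 had 37.6 and 44.5 in PCT and 50.9 and 48.3 in PST at P0, against 8.16 to 12.5 and 65.2 to 88.2 in adult (2.63 ± 0.276). Slc38a3 had 61.9 and 66.7 in PCT and 86.0 and 72.4 in PST at P0, against 15.3 to 24.6 and 79.8 to 90.8 in adult (1.70 ± 0.230). For these 3 genes the PCT level was higher at P0 than in any adult sample. Slc7a12 and Slco1a6 had lower PST values at P0: Slc7a12 had 18.2 and 22.1 in PST at P0 against 55.7 to 93.9 in adult, and Slco1a6 60.6 and 70.4 against 126 to 164. Toward PCT, Slc16a10, an aromatic amino acid transporter, had 113 and 109 in PCT and 113 and 108 in PST at P0, against 195 to 229 and 111 to 120 in adult (-0.87 ± 0.156). G6pc went the other way, with 28.5 and 30.2 in PCT and 4.84 and 4.02 in PST at P0. In adult it had 38.9 to 42.9 and 19.0 to 21.8, so its contrast was larger at P0. The gene held 1 tested peak, and its P0 PST values rest on few open calls from 83 and 112 nuclei. The number of genes called rested on both P0 samples: without P0 sample 1 it was 20, and without P0 sample 2 it was 27. Without P56 sample 1 it was 1362.

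**Figure D5:**
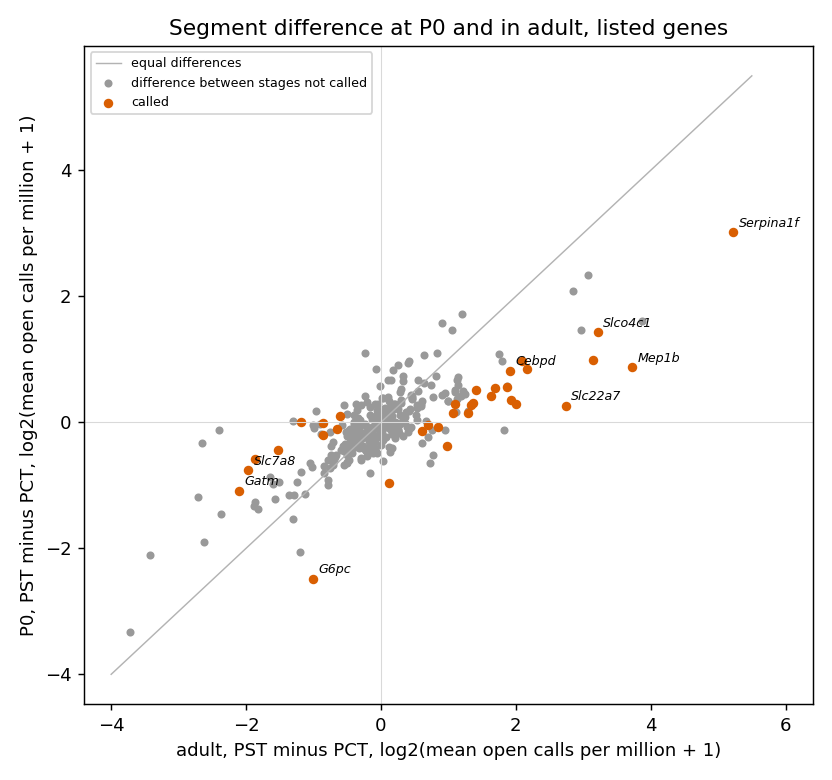
Segment difference (PST minus PCT) in adult on the x axis and at P0 on the y axis, both as log2 of the mean cpm plus 1, for 320 listed genes that were tested, with the 34 genes whose difference between stages was called in orange. The orange points were chosen by the test between stages, and G6pc lies below the line of equal differences.

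Between the ages within the adult group the segment difference was called at 22 of 101933 peaks (0.0216%), with a single P21 sample. At 15 of them it lay further toward PST at P21 and at 7 further toward PCT. An intron peak of Prlr had 7.67 cpm in PCT at P21 and 16.3 and 20.5 at P56, with 74.0 in PST at P21 and 49.7 and 45.6 at P56. The P21 sample was the lowest in PCT and the highest in PST, and the difference of differences was 1.94 ± 0.385 (edgeR adjusted p = 0.00584). With 1 P21 library the spread comes from the P56 samples, and that library is assumed to vary like them. Without the filter on low counts 2 peaks were called.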

How the data were processed

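Per the labels and the study's methods, the authors aligned reads to mm10 (GRCm38) with Cell Ranger ATAC 1.1.0, filtered barcodes, clustered all nuclei with SnapATAC and Harmony, called peaks with MACS2 separately for every cell type, over nuclei of all samples, and joined the lists. The deposited matrix holds counts that the authors binarized, 1 where a nucleus has a fragment in a peak, so it counts open nuclei and not fragments. Its 89197 stored zeros were left out.

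Open calls were summed per sample and cluster and tested with edgeR 4.0.16 in R 4.3.3 (quasi-likelihood test, TMM, filterByExpr with a minimum count of 10 and total of 15), with the sample as block and Benjamini-Hochberg adjustment over all peaks or genes; a call is an adjusted p under 0.05. SEs were derived from the test. Both clusters of a sample come from the same library, and their deviations correlated at 0.279 to 0.391 over peaks and 0.301 to 0.498 over genes. Gene activity used GENCODE gene models with 2000 bp upstream, joined by bedtools 2.31.1. No fold is given for a named peak with 3 or fewer open calls in a cluster, and sizes are summarised without such peaks. Named peaks and genes were the 10 largest in each direction by the stated rules, and up to 4 list members in each direction were named by p. Other list members were named for their known role after their values were seen. The members and the 23 lists were chosen with earlier results of these data known. The steps were tested on simulated data. DESeq2 1.42.0 served as an alternative. Results for some genes and motifs are not reported here.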

Additional observations from a re-analysis of the deposited data

Results flagged for a closer look

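The segment difference of 22 peaks differed between the P21 sample and the P56 samples by an interaction term (edgeR). Those in or near genes of the lists had log2 differences of differences (P21 minus P56) of 2.27 and 2.43 near Atp11a, 1.94 in Prlr, 1.83 in Slco3a1, 3.38 in Aadat, 2.37 and 2.64 in Stat5b and 2.09 near Slc22a2. Age cannot be told apart from the single P21 library.

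Between P0 and adult the segment difference in gene activity differed at 832 genes by the same kind of test. Toward PST, the log2 differences of differences (adult minus P0) were 3.06 for Bcat1, 2.99 for Mep1b, 2.79 for Kcnk1, 2.48 for Serpina1f, 2.08 for Wasf3, 2.03 for Cldn3, 1.85 for Slco4c1, 1.52 for Napsa, 1.38 for Slc22a19, 1.18 for Slc5a8 and 0.89 for Atp11a. Toward PCT, they were -1.71 for Cyp2f2, -1.35 for Prodh2, -1.13 for Gatm and -1.01 for Acss1. The P0 samples held 83 and 112 PST nuclei.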

How the results depend on the processing

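Of 43136 peaks called, the number became 97567 with Fisher's exact test over nuclei on 297358 unfiltered peaks, where test and filter both changed and 82.9% were higher in PST, 26438 with equal numbers of nuclei, 16078 after thinning and 32703 to 45562 with 1 sample left out. Of 8188 genes, it became 5107 after thinning and 6917 to 7397 with 1 sample left out. DESeq2 called 30426 peaks and 5632 genes. Without the replicate block, 33604 peaks and 5040 genes were called, and 26 of 151 named peaks and genes lost their call. The 22 peaks that differed between P21 and P56 became 2 without the filter on low counts, and the 832 genes that differed between stages became 1667 without it and 20 to 1362 with 1 sample left out. Esrrg gene activity was at -0.64 and reversed to 0.22 in peaks within 2 kb of a start site. The causes were not tested. Thinning also left fewer peaks to test, 47644 of 101933.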
